A study of Mus musculus with 3 samples.

Results

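The transcripts of 3 genes that control bone resorption were followed across the cell classes of the mouse calvaria, the roof of the skull. They are Tnfsf11, which encodes the ligand RANKL, Tnfrsf11a, which encodes its receptor RANK, and Tnfrsf11b, which encodes osteoprotegerin. They were taken by symbol, as 3 of the 31053 genes in the deposited count tables. The libraries came from C57BL/6 mice aged 8 weeks. In the scratch-positive group, labelled as the invasive stage, HNM007 cells, a mouse squamous carcinoma line, were placed on a bone surface first scratched with a needle, which strips the periosteum. In the scratch-negative group, labelled as the pre-invasive stage, HNM007 cells were placed on unscratched bone. Tissue of both groups was taken 1 week after implantation with the tumour cut away, and the control group carried no tumour. The data hold 1 library a group and no scratched calvaria without tumour, so scratching, invasion, library and batch cannot be told apart. The number of animals behind each library is not given in the sources used here. Sorted CD45+ and CD45- cells were combined in equal parts before 10x 3′ capture, so the share of a cell type in a library does not show its share in the tissue.

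RANKL is a membrane-bound or shed cytokine of the TNF family made by osteoblast-lineage cells, osteocytes, marrow stromal cells and activated T cells. It binds RANK on myeloid precursors and osteoclasts, where TRAF6, NF-κB, c-Fos and NFATc1 carry the signal to the genes that fuse precursors and dissolve bone. Osteoprotegerin is a secreted decoy receptor, made mainly by stromal and osteoblast-lineage cells, that binds RANKL and keeps it from RANK.

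In the mouse annotation (GENCODE vM21 on GRCm38, the mm10 assembly), Tnfsf11 lies on the minus strand at chr14:78277445-78308043 and has 5 exons. Tnfrsf11a lies on the plus strand at chr1:105780718-105847981, with 10 exons in its coding transcript. Tnfrsf11b lies on the minus strand at chr15:54250619-54278484 and has 5 exons. No other annotated gene overlaps any of them, so their reads are not shared with a neighbour on either strand. The stretches just before the annotated starts of the ligand and receptor genes are shown, from RefSeq on GRCm38.p6, because they differ in base composition, with CG dinucleotides in capitals. The first covers chr14:78308044-78308293 on the minus strand and the second chr1:105780473-105780717 on the plus strand.
Tnfsf11: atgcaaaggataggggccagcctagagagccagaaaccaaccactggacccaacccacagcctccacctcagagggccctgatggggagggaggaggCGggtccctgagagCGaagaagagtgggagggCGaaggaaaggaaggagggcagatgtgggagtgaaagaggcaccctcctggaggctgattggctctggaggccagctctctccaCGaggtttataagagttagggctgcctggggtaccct
Tnfrsf11a: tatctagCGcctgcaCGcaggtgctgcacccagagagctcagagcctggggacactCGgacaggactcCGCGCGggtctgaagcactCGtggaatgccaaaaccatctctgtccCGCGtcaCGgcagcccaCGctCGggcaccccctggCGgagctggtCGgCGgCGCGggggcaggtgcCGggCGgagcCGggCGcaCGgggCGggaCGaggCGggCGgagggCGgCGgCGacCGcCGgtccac
The Tnfsf11 stretch had a GC content of 60.4% and 4 CG dinucleotides. The Tnfrsf11a stretch had a GC content of 73.9% and 31 CG dinucleotides, a number that 5.19% of the 32851 mouse promoters of that table reached, against a median of 6.0. Both strands were searched for TGTGGT (RUNX factors, in 14.0% of all promoters), GAGGAA (PU.1, in 23.3%), TGANTCA (AP-1, in 6.75%) and TATAAA (the TATA box, in 12.4%). The only match was to TATAAA in the Tnfsf11 stretch, read on the opposite strand as TTTATA, 26 bases before its end.

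After removal of barcodes with few genes, many mitochondrial reads or high doublet scores, 8426 scratch-positive, 7590 scratch-negative and 6179 control cells were kept. Their median depth was 36437.5, 11261.5 and 8864 UMIs (unique molecules) a cell, so shares of cells with a UMI are also given with every cell thinned to 5000 UMIs. Cells were grouped into 25 clusters without use of the 3 genes, and each cluster was named only from cell type markers, so that "osteoclast-like" means carrying osteoclast markers. Of the osteoclast markers, 9 of 10 stood out in the osteoclast-like cluster, and 13 of 13 macrophage markers did in the main macrophage-like cluster. Both fibroblast-like clusters showed fibroblast markers, 13 of 13 in cluster 10 and 11 of 13 in cluster 22. The tumour-like clusters showed 4 or 5 of 12 markers, among them Krt8 and Krt18, and the osteoblast-like and reticular-like cluster showed 10 of 10 marrow reticular markers. Clusters 1 and 19 were left unnamed because they were shallow and had no marker of their best-matching class among their 10 leading genes. Those classes were neutrophils for cluster 1 (10 of 12 markers) and fibroblasts for cluster 19 (7 of 13). The libraries shared between 12 and 23 kept barcodes a pair, which held at most 3 Tnfsf11, 23 Tnfrsf11a and 0 Tnfrsf11b UMIs. All intervals are 95% intervals that cover counting error only, and with 1 library a group no test between groups was made. A gene is said to pass the 1.5-fold rule when the ratio of its CPM (its UMIs per 1000000 UMIs of the summed cells) was at least 1.5-fold and its whole interval lay on that side of 1.

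Most UMIs of each gene came from 1 or 2 classes in each library. Of the Tnfsf11 UMIs, fibroblast-like cells held 803 of 894 (89.8%) in the scratch-positive library, 340 of 462 (73.6%) in the scratch-negative library and 9 of 79 (11.4%) in control. In control, 55 of 79 Tnfsf11 UMIs (69.6%) lay instead in the osteoblast-like and reticular-like cluster. Of the Tnfrsf11a UMIs, osteoclast-like cells held 3306 of 4201 (78.7%), 333 of 520 (64.0%) and 105 of 152 (69.1%) in the scratch-positive, scratch-negative and control libraries, and monocyte- and macrophage-like cells held most of the rest. Of the Tnfrsf11b UMIs in the scratch-positive library, 232 of 372 (62.4%) came from osteoclast-like cells and 132 (35.5%) from fibroblast-like cells. In the scratch-negative library 241 of 265 (90.9%) came from fibroblast-like cells, where most of the ligand UMIs lay too, and the control library had 10 in all. These shares move with the number of cells of each class that were captured, which were 874, 84 and 26 for the osteoclast-like class, so the levels in CPM follow.

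**Figure D1:**
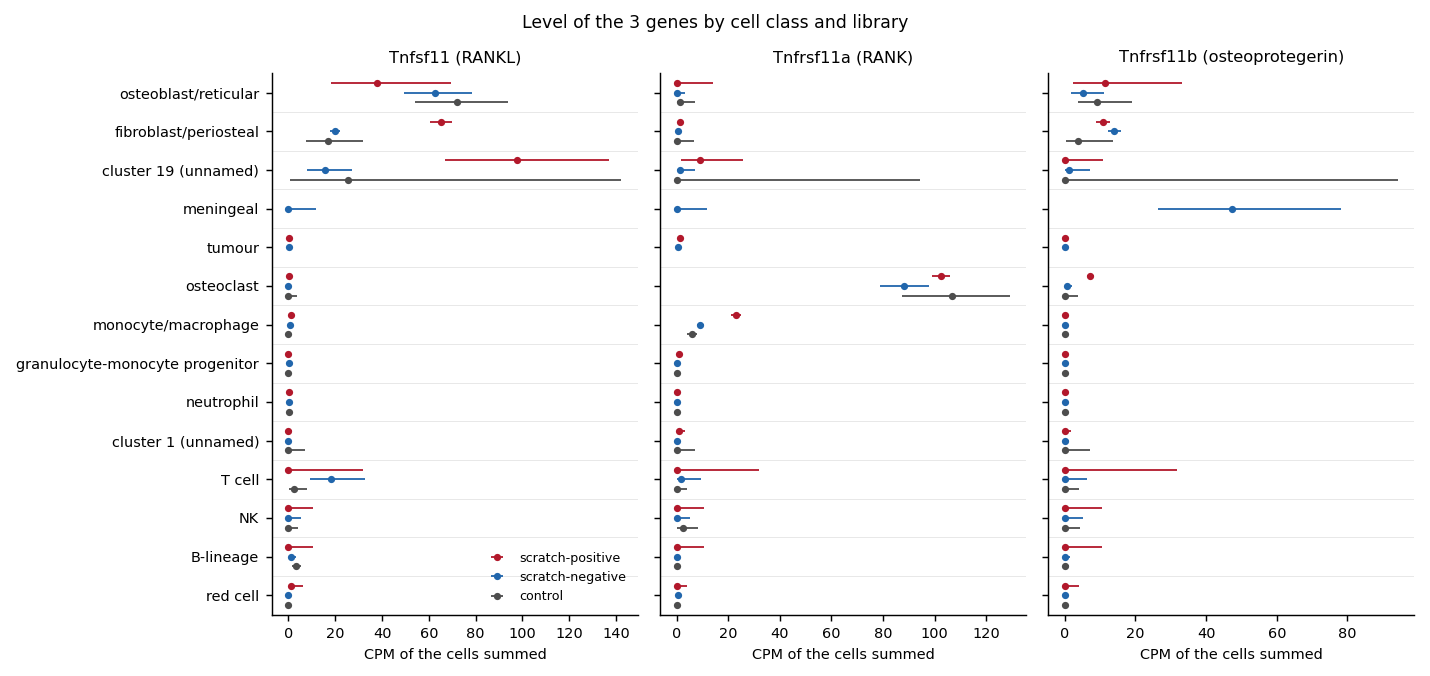
Summed CPM of each gene (x axis, linear) by cell class (rows) in the scratch-positive, scratch-negative and control libraries; points are levels, lines are 95% Poisson intervals, and units under 15 cells are left out. Tnfsf11 is high in the stromal classes, Tnfrsf11a in osteoclast-like cells near 100 CPM in every library, and Tnfrsf11b in fibroblast-like and meningeal-like cells and, in the scratch-positive library, at 7.18 CPM in osteoclast-like cells.

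Tnfsf11 was higher in scratch-positive than in scratch-negative fibroblast-like cells. Its level was 65.1 CPM (60.6 to 69.7) in 420 scratch-positive cells, 19.8 CPM (17.7 to 22.01) in 549 scratch-negative cells and 16.8 CPM (7.70 to 32.0) in 49 control cells. The scratch-positive interval lies above both others, and those of scratch-negative and control overlap. The ratio of scratch-positive to scratch-negative was 3.29 (2.89 to 3.74) and passed the 1.5-fold rule, which 11.4% of the 14007 genes measured in that comparison passed upwards. A Tnfsf11 UMI was found in 214 of 420 scratch-positive cells (51.0%), 139 of 549 scratch-negative cells (25.3%) and 7 of 49 control cells (14.3%), at median depths of 28576.5, 29705 and 10793 UMIs. Thinned to 5000 UMIs, with 10, 16 and 7 shallower cells left out, the shares were 21.7% (17.8 to 26.0), 6.75% (4.78 to 9.23) and 2.38% (0.0603 to 12.6). Neutrophil-like cells, which should lack the gene, had a Tnfsf11 UMI in 0.134%, 0.212% and 0.0459% of cells at median depths of 8632, 10275 and 8771 UMIs, and in 0%, 0.0553% and 0.0291% once thinned.

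The ratio passed the rule in each fibroblast-like cluster taken alone. In cluster 10, led by Clec3b, Fmod and Angptl1, Tnfsf11 stood at 74.8 CPM in 114 scratch-positive cells and 22.6 CPM in 199 scratch-negative cells, a ratio of 3.31 (2.51 to 4.39) that passed the rule, as did 6.07% of all genes there. In cluster 22, led by Crabp1, Gzmd and Tagln, it stood at 62.9 CPM in 306 scratch-positive cells and 19.1 CPM in 350 scratch-negative cells, a ratio of 3.30 (2.85 to 3.82) that passed, as did 14.8% of genes. The make-up of cluster 10 also differed: most cells of the Enpp2-led sub-cluster, which in all had 50 scratch-positive and 30 scratch-negative cells and high Tnfsf11, lay in it, and so did most of the Clec3b and Pi16 sub-cluster, which had 19 and 64 cells and nearly no Tnfsf11. Cluster 22 differed in make-up too. It held most cells of the Gzmd-led sub-cluster, which in all had 185 scratch-positive and 2 scratch-negative cells. It also held the Serpinb2-led sub-cluster, with 6 and 90 cells, and most of the Ereg-led one, with 19 and 80. The part of this make-up in the ratios of either cluster was not tested. Size factors from the median of all genes shifted cluster 22 by 0.16 on the log2 scale and left a ratio of 2.95. Cells with many copies were more frequent too: 106 scratch-positive and 45 scratch-negative fibroblast-like cells held at least 3 Tnfsf11 UMIs, and the fullest held 25 and 16. Control fibroblast-like cells lay in cluster 10 alone. Against control, the scratch-positive ratio was 3.86 (2.02 to 8.48) and passed, beside 12.6% of all genes, and within cluster 10 it was 4.44 (2.28 to 9.88). The scratch-negative ratio to control was 1.17 (0.612 to 2.59), or 1.34 (0.672 to 3.05) within cluster 10, and did not pass a rule that 8.09% of genes passed upwards, so a difference was not detectable with the 9 control UMIs.

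RNA of other cells moved with these groups. The neutrophil transcript S100a8 stood at 1429 CPM in scratch-positive, 12713 CPM in scratch-negative and 12992 CPM in control fibroblast-like cells, and the tumour keratin Krt8 at 36.0, 1.05 and 0 CPM. Finer clustering found 7 sub-clusters of stromal and myeloid cells, with 896 cells, whose best-matching markers were those of neutrophils, red cells, granulocyte-monocyte progenitors or natural killer cells, and these are called mixed. With the mixed cells left out, Tnfsf11 was at 66.6 CPM in scratch-positive and 20.7 CPM in scratch-negative fibroblast-like cells, a ratio of 3.21 (2.80 to 3.69). That step kept 3 sub-clusters in which at least 3 markers of tumour-like cells or neutrophils stood out as well. They are the Gzmd and Mcpt8 sub-cluster (Krt8, Krt18, Krt7 and Sfn), the cycling stromal sub-cluster (Krt8, Krt18 and Krt7) and the Pf4 and Arg1 macrophage-like sub-cluster (7 of 12 neutrophil markers). With these left out as well, 138 scratch-positive and 420 scratch-negative fibroblast-like cells remained, and the Tnfsf11 ratio was 4.07 (3.34 to 4.98).

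Among the stromal sub-clusters, Tnfsf11 varied widely within 1 library. The highest well-filled level was in the sub-cluster led by Adipoq and Esm1, which carried 10 of 10 marrow reticular markers, the adipocyte-like stromal cells that support blood formation. It stood there at 139 CPM (45.0 to 323) in 6 scratch-positive cells, 249 CPM (185 to 327) in 24 scratch-negative cells and 160 CPM (114 to 217) in 29 control cells, and these intervals overlap. In the sub-cluster led by Enpp2, which makes the lysophosphatidic acid enzyme autotaxin, and Fam180a, Tnfsf11 was at 138 CPM (117 to 162) in 50 scratch-positive cells, 72.3 CPM (51.9 to 98.1) in 30 scratch-negative cells and 70.0 CPM (14.4 to 204) in 10 control cells. Its scratch-positive interval lies above the scratch-negative one. Those cells held nearly no Tnfrsf11b, with 2, 0 and 1 UMIs against 151, 41 and 3 of Tnfsf11.

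The cycling stromal sub-cluster, led by Hist1h1b and Spdl1, had 69.0 CPM of Tnfsf11 in 82 scratch-positive cells and 28.2 CPM in 51 scratch-negative cells. That ratio was 2.45 (1.87 to 3.23) and passed the rule, beside 5.60% of genes. Of all marker lists, that of tumour-like cells matched these cycling cells best, with 3 of 12 markers, all keratins. In the sub-cluster led by Ereg, an EGF-family ligand, and Slco2a1 the levels were 41.0 CPM (26.6 to 60.6) in 19 scratch-positive cells and 16.1 CPM (11.8 to 21.4) in 80 scratch-negative cells, again without overlap. Other sub-clusters belonged almost wholly to 1 library, so that library and type cannot be told apart in them. The one led by Gzmd and Mcpt8 held 185 scratch-positive and 2 scratch-negative cells, with 60.1 CPM in the scratch-positive cells. Keratins stood out in it too, as given above. The one led by Serpinb2 and A2m held 6 scratch-positive and 90 scratch-negative cells, with 156 CPM (94.2 to 244) in the scratch-positive cells and 6.88 CPM (4.20 to 10.6) in the scratch-negative cells.

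Other sub-clusters had few Tnfsf11 UMIs or no gap between libraries. In the sub-cluster led by Clec3b and Pi16, markers of adventitial fibroblasts, there were 0, 4 and 1 UMIs in 19 scratch-positive, 64 scratch-negative and 14 control cells. In the sub-cluster led by the matrix genes Cilp2 and Egfl6 the levels were 21.2 CPM (10.6 to 37.9) in 31 scratch-positive cells and 22.5 CPM (14.4 to 33.5) in 63 scratch-negative cells, which overlap, with 0 UMIs in 12 control cells. The osteoblast-like sub-cluster, with Bglap and 10 other markers of that lineage, had 3, 1 and 0 UMIs in 6, 24 and 11 cells.

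**Figure D2:**
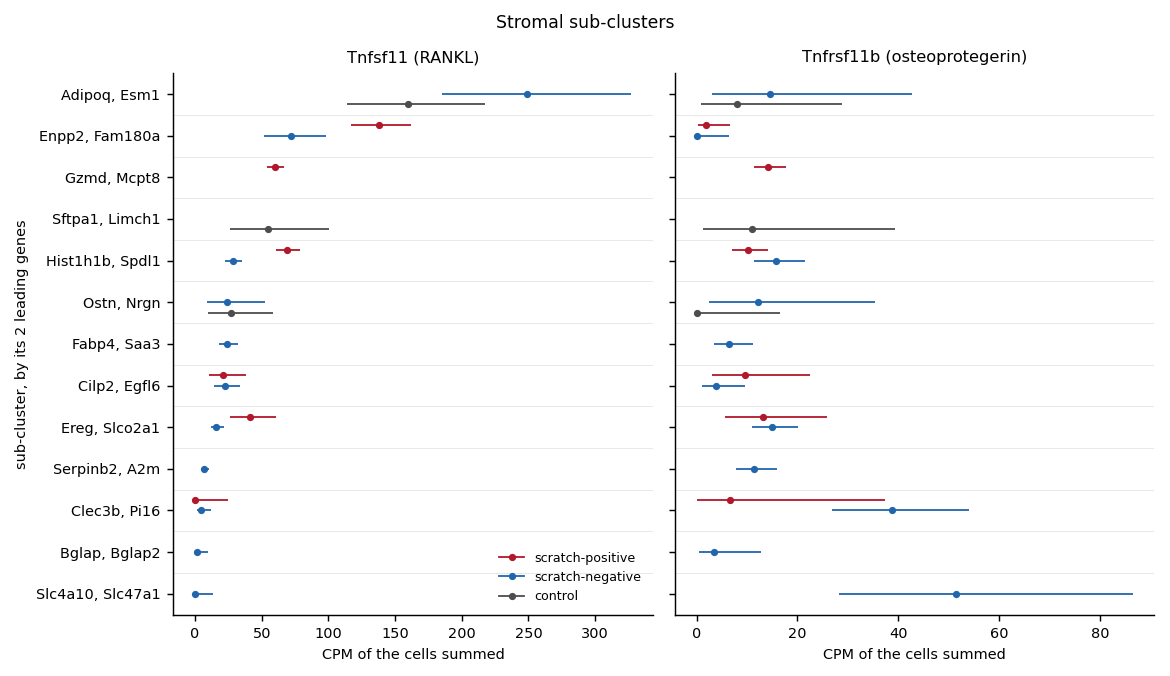
Summed CPM (x axes, linear) of Tnfsf11 (left) and Tnfrsf11b (right) in stromal sub-clusters named by their 2 leading genes, for the scratch-positive, scratch-negative and control libraries; lines are 95% Poisson intervals, with mixed sub-clusters and units under 15 cells left out. Tnfsf11 runs between 249 CPM in scratch-negative Adipoq-led cells and 0 in meningeal-like cells led by Slc4a10, and Tnfrsf11b is highest in the meningeal-like and Clec3b-led cells of the scratch-negative library.

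As a whole, the osteoblast-like and reticular-like cluster had 37.7 CPM of Tnfsf11 (18.1 to 69.3) in 15 scratch-positive cells, 62.6 CPM (49.2 to 78.6) in 62 scratch-negative cells and 72.0 CPM (54.3 to 93.8) in 61 control cells. All these intervals overlap. The ratio of scratch-negative to control was 0.870 (0.605 to 1.26), or 1.04 with size factors, which shift that comparison by 0.26 downwards on the log2 scale. It did not pass the rule, which 18.6% of genes passed in either direction.

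Outside the stroma, lymphoid cells held small numbers of Tnfsf11 UMIs. T cell-like cells had 0 UMIs in 17 scratch-positive cells (a share of up to 17.6% is allowed by a count of 0), 11 UMIs in 6 of 74 scratch-negative cells, and 2 UMIs in 2 of 104 control cells. Their levels of 18.4 CPM in scratch-negative and 2.18 CPM in control gave a ratio of 8.45 (1.84 to 78.4), or 7.52 with size factors, which passed the rule beside 6.29% of genes and rests on 13 UMIs. B-lineage cells had 0, 3 and 10 UMIs in 33, 166 and 242 cells. Macrophage-like cells had 21 UMIs in 9 of 912 scratch-positive cells, 11 in 3 of 707 scratch-negative cells and 0 in 384 control cells. With mixed cells left out, 4, 1 and 0 of those UMIs remained. The 9 scratch-positive carriers of cluster 13 had 53.0 CPM of the T cell gene Cd3e, against 2.32 CPM in the other 848 cells. Tumour-like cells had 22 Tnfsf11 UMIs in 14 of 3823 scratch-positive cells and 1 in 219 scratch-negative cells, with 9 UMIs in 1 scratch-positive cell. Their levels of 0.0877 CPM and 0.0683 CPM were under the neutrophil levels of 0.127 CPM and 0.160 CPM. Unnamed cluster 19, with Des and Pdgfrb among its leading genes, held several kinds of cell. Of its 137 cells, 70 lay in a mixed sub-cluster with neutrophil markers and 24 in one with smooth muscle and pericyte markers. The cluster had 33 UMIs in 7 of 18 scratch-positive cells (97.5 CPM), 19 of them in a single cell. It had 12 UMIs in 97 scratch-negative cells (15.5 CPM).

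Tnfrsf11a, the receptor gene, differed by less than 1.5-fold between libraries in osteoclast-like cells. It stood at 102 CPM (98.8 to 106) in 874 scratch-positive cells, 88.0 CPM (78.8 to 98.0) in 84 scratch-negative cells and 107 CPM (87.2 to 129) in 26 control cells. The scratch-positive interval lies just above the scratch-negative one, and the control interval overlaps both. The ratio of scratch-positive to scratch-negative was 1.16 (1.04 to 1.31), or 1.10 (0.982 to 1.23) with size factors, and did not pass the 1.5-fold rule, which 8.67% of the 12637 genes passed upwards. A UMI was present in 94.1%, 97.6% and 92.3% of the cells at median depths of 36209, 40733.5 and 39931.5 UMIs, against 0.201%, 0.0942% and 0.0689% of neutrophil-like cells. Across sub-clusters of the scratch-positive osteoclast-like cells, the levels ran between 79.2 CPM (71.2 to 87.8) in cells led by Dusp9 and 125 CPM (116 to 134) in cells led by Oscar, an osteoclast co-receptor, and Mst1r. In the scratch-negative library the sub-clusters of at least 15 cells had 91.7 CPM (74.0 to 112) in 19 cycling cells, 92.3 CPM (77.3 to 109) in 41 Dusp9-led cells and 107 CPM (82.1 to 138) in 16 cells led by Qprt and Lag3, and these intervals overlap.

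In monocyte- and macrophage-like cells, Tnfrsf11a was lower than in osteoclast-like cells and its ratios between libraries passed the rule. Its level was 23.1 CPM (21.2 to 25.1) in 912 scratch-positive cells, 9.12 CPM (7.74 to 10.7) in 707 scratch-negative cells and 5.82 CPM (4.16 to 7.93) in 384 control cells. The scratch-positive interval lies above both others, which overlap slightly. The ratio of scratch-positive to scratch-negative was 2.53 (2.12 to 3.05), or 2.24 (1.87 to 2.70) with size factors, and passed the rule, as did 27.3% of the 12943 genes of that comparison, a large background. The scratch-negative ratio to control was 1.57 (1.10 to 2.28) and passed beside 10.0% of genes, and the scratch-positive ratio to control was 3.97 (2.88 to 5.61) and passed beside 26.8%. The shares of cells with a UMI were 31.5%, 15.3% and 5.99% at median depths of 19316.5, 14644 and 9744.5 UMIs, and 9.83% (7.92 to 12.0), 3.70% (2.36 to 5.51) and 1.43% (0.467 to 3.31) once thinned.

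The make-up of that class differed between libraries. Cluster 13, led by C1qa, C1qb and C1qc, held 857 of 912 scratch-positive, 575 of 707 scratch-negative and 103 of 384 control cells, and the remainder lay in cluster 11, led by the monocyte genes F13a1 and Ccr2. Within cluster 13, Tnfrsf11a was at 23.6 CPM in scratch-positive, 9.75 CPM in scratch-negative and 6.81 CPM in control cells. The ratio of scratch-positive to scratch-negative there was 2.42 (2.02 to 2.91), or 2.10 with size factors, and passed, beside 28.9% of genes. The scratch-negative ratio to control within cluster 13 was 1.43, with an interval of 0.952 to 2.23 that includes 1. Neutrophil RNA moved with the groups: S100a8 stood at 41874 CPM in scratch-positive, 109497 CPM in scratch-negative and 91488 CPM in control cells of the whole class. With mixed cells left out, the ratio of scratch-positive to scratch-negative was 1.64 (1.27 to 2.13) for the class and 1.34 (1.04 to 1.75) for cluster 13, where 632 scratch-positive cells had 27.4 CPM and 259 scratch-negative cells had 20.5 CPM. In cluster 13 the 1.5-fold rule was then no longer passed. With the Pf4 and Arg1 sub-cluster left out as well, the ratio for the class was 1.72 (1.29 to 2.32).

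The level of Tnfrsf11a also differed among sub-clusters of these myeloid cells. Cells led by the complement genes C1qa and C1qc, as in tissue macrophages, had 34.5 CPM (29.5 to 40.2) in 167 scratch-positive cells, 39.8 CPM (19.9 to 71.2) in 19 scratch-negative cells and 137 CPM (65.7 to 252) in 6 control cells. The control interval lies above the scratch-positive one, on 10 UMIs. Cells led by Pf4 and Arg1 had 24.4 CPM (20.7 to 28.6) in 223 scratch-positive cells and 15.6 CPM (8.33 to 26.7) in 36 scratch-negative cells, which overlap. As given above, 7 of 12 neutrophil markers also stood out in them. Cells led by the interferon-response genes Ifit2 and Mx1 had 24.1 CPM (15.8 to 35.3) in 108 scratch-positive, 17.7 CPM (12.3 to 24.6) in 161 scratch-negative and 4.63 CPM (0.117 to 25.8) in 18 control cells. In 108 scratch-positive and 18 scratch-negative dendritic-like cells led by Plet1 and Ccl17 the levels were 9.13 CPM and 10.5 CPM. Dendritic-like cells led by Ccr7, a migration receptor, had 5 UMIs in 7 scratch-positive cells and 6 UMIs in 9 scratch-negative cells, 114 CPM (37.0 to 266) and 87.4 CPM (32.1 to 190). Monocyte-like cells led by F13a1 and Stxbp6 had 0 UMIs in 43 scratch-positive cells, 4.28 CPM in 76 scratch-negative cells and 5.18 CPM in 144 control cells.

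**Figure D3:**
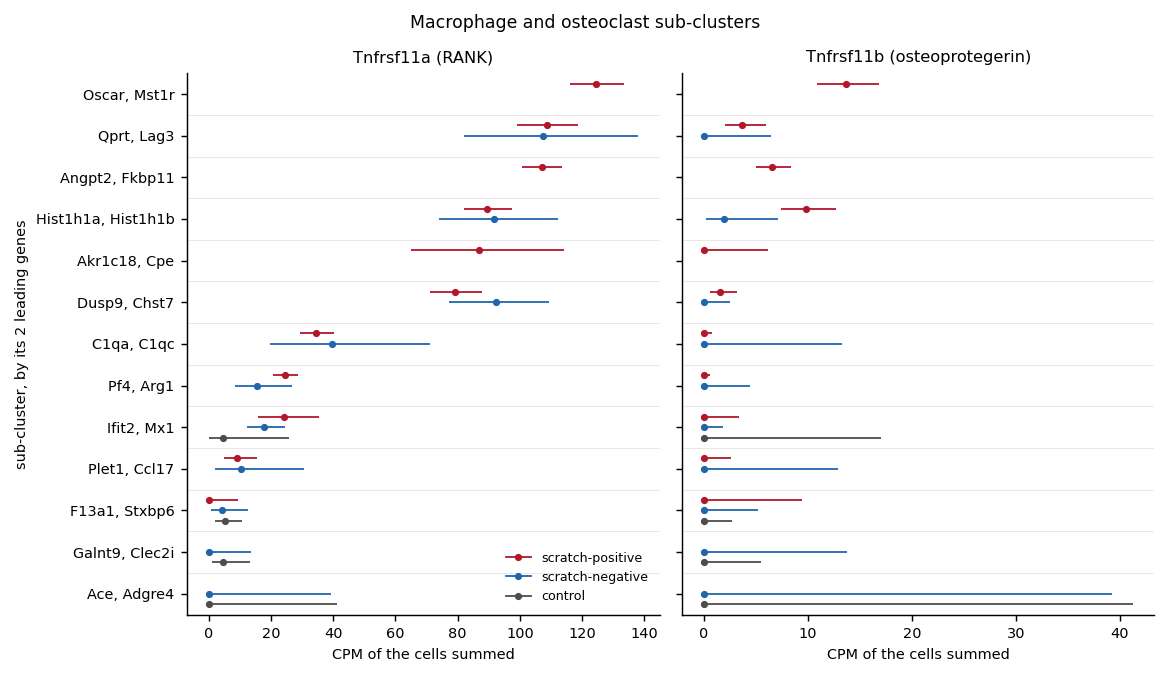
Summed CPM (x axes, linear) of Tnfrsf11a (left) and Tnfrsf11b (right) in osteoclast-like, macrophage-like and monocyte-like sub-clusters named by their 2 leading genes, for the scratch-positive, scratch-negative and control libraries; lines are 95% Poisson intervals, with mixed sub-clusters and units under 15 cells left out. Tnfrsf11a is highest in the osteoclast-like sub-clusters, at 79.2 to 125 CPM in the scratch-positive library, and Tnfrsf11b UMIs appear in them and not in the other myeloid sub-clusters plotted.

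Low levels of Tnfrsf11a were also counted in tumour-like cells. There were 309 UMIs in 268 of 3823 scratch-positive cells (7.01%) and 8 UMIs in 8 of 219 scratch-negative cells (3.65%), at median depths of 62907 and 66982 UMIs. The levels of 1.23 CPM (1.10 to 1.38) and 0.546 CPM (0.236 to 1.08) gave a ratio of 2.26 (1.13 to 5.27), which passed the rule beside 3.42% of genes. Thinned to 5000 UMIs, the shares were 0.676% and 0%. RNA of osteoclasts moved with the same groups: the osteoclast protease gene Ctsk stood at 31.7 CPM in scratch-positive and 3.003 CPM in scratch-negative tumour-like cells, and at 43.8 CPM and 3.10 CPM in neutrophil-like cells, where Tnfrsf11a was at 0.190 CPM and 0.0887 CPM. The part of osteoclast RNA in the tumour-like counts was not tested further. In fibroblast-like cells Tnfrsf11a had 16 UMIs in 12 scratch-positive cells, 9 UMIs in 3 scratch-negative cells, 7 of them in 1 cell, and 0 UMIs in control. That ratio of scratch-positive to scratch-negative, 2.48 (1.03 to 6.36), passed the rule, and with mixed cells left out it was 1.62 (0.595 to 4.65).

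Tnfrsf11b, the decoy gene, did not pass the rule in fibroblast-like cells as a whole. It stood at 10.7 CPM (8.95 to 12.7) in scratch-positive, 14.0 CPM (12.3 to 15.9) in scratch-negative and 3.74 CPM (0.453 to 13.5) in control cells, from 132, 241 and 2 UMIs. All these intervals overlap. The ratio of scratch-positive to scratch-negative was 0.763 (0.612 to 0.947), below 1 but within the 1.5-fold limit, which 16.2% of genes passed downwards. The clusters differed: in cluster 10 the levels were 5.38 CPM (2.78 to 9.39) in scratch-positive and 15.5 CPM (11.6 to 20.3) in scratch-negative cells, a ratio of 0.347 (0.169 to 0.659) that passed downwards, as did 13.9% of genes. Most cells of the Clec3b and Pi16 sub-cluster, 19 scratch-positive and 64 scratch-negative in all, lay in cluster 10. Scratch-negative cells of that sub-cluster had 38.7 CPM of the decoy, and their part in the ratio was not tested. In cluster 22 they were 11.9 CPM and 13.7 CPM, a ratio of 0.868 (0.685 to 1.10) that did not pass. With the mixed and the 3 keratin- or neutrophil-bearing sub-clusters left out, the ratio for the class was 0.413 (0.230 to 0.692) and passed. Scratch-negative over control gave 3.75 (1.03 to 31.1), which passed, and 3.35 (0.915 to 27.9) with mixed cells left out, which did not. Scratch-positive over control gave 2.86 (0.776 to 23.8) and did not pass. Both rest on 2 control UMIs, and the control cells lay in cluster 10 alone.

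The decoy transcripts were spread differently from those of the ligand. The Clec3b and Pi16 sub-cluster, which had nearly no Tnfsf11, had 1, 34 and 1 Tnfrsf11b UMIs in scratch-positive, scratch-negative and control cells, or 6.70 CPM (0.170 to 37.3), 38.7 CPM (26.8 to 54.1) and 8.20 CPM (0.208 to 45.7). In meningeal-like cells, with 5 of 8 markers of the brain's coverings, 10 of 20 scratch-negative cells held 15 Tnfrsf11b UMIs (47.3 CPM, 26.5 to 78.1), 8 scratch-positive cells held 1 and 6 control cells held 0. The Gzmd and Mcpt8 sub-cluster had 14.3 CPM in 185 scratch-positive cells, and the Ereg and Slco2a1 sub-cluster had 13.1 CPM in scratch-positive and 15.03 CPM in scratch-negative cells. A sub-cluster of 14 scratch-negative cells led by Cxcl9 and Gbp4, genes of the interferon response, had 22 Tnfrsf11b UMIs, 35.2 CPM (22.04 to 53.2), and 10 of Tnfsf11. The cycling stromal sub-cluster had 10.2 CPM and 15.8 CPM, with a ratio of 0.646 (0.3995 to 1.04). The osteoblast-like and reticular-like cluster had 11.3 CPM, 5.08 CPM and 9.17 CPM in scratch-positive, scratch-negative and control cells, from 3, 6 and 7 UMIs.

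The number of ligand UMIs for each decoy UMI in fibroblast-like cells, which does not depend on the class total, was 6.08 (5.05 to 7.37) in scratch-positive, 1.41 (1.19 to 1.67) in scratch-negative and 4.50 (0.931 to 42.8) in control. The scratch-positive interval lies above the scratch-negative one, and the control interval spans both. The ratio of the scratch-positive to the scratch-negative value was 4.31 (3.34 to 5.57) in the class, 9.52 (4.65 to 20.6) in cluster 10, 3.79 (2.87 to 5.02) in cluster 22 and 3.79 (2.17 to 6.60) in the cycling sub-cluster. It was 9.87 (5.61 to 18.3) in the class without the mixed and the 3 keratin- or neutrophil-bearing sub-clusters. The cells of clusters 10 and 22 differed in make-up between the libraries, as given above. In the osteoblast-like and reticular-like cluster the ligand-to-decoy number was 3.33 (0.858 to 18.8), 12.3 (5.41 to 34.7) and 7.86 (3.57 to 20.5) in scratch-positive, scratch-negative and control, and all of these overlap. Fibroblast-like cells with UMIs of both genes numbered 40 of the 214 Tnfsf11 carriers in the scratch-positive library (18.7%), 36 of 139 in the scratch-negative library (25.9%) and 1 of 7 in control (14.3%). Of all fibroblast-like cells, 83 of 420, 130 of 549 and 2 of 49 held a Tnfrsf11b UMI in the same order, and the overlap was not tested.

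Osteoclast-like cells of the scratch-positive library also carried Tnfrsf11b. There were 232 UMIs in 71 of 874 scratch-positive cells (8.12%), 2 UMIs in 1 of 84 scratch-negative cells (1.19%) and 0 UMIs in 26 control cells, in which a count of 0 allows a share of up to 11.5%. The levels of 7.18 CPM (6.28 to 8.16) and 0.528 CPM (0.0640 to 1.91) gave a ratio of scratch-positive to scratch-negative of 13.6 (3.72 to 113), which passed the rule beside the 8.67% of genes given above. The make-up of the class differed between the libraries: the Dusp9-led sub-cluster held 129 scratch-positive and 41 scratch-negative cells, the Angpt2-led one 262 and 7, and the Oscar-led one 170 and 4. The part of this make-up in the ratio was not tested. Among the 71 carriers, 30 had 1 UMI, 33 had at least 3 and the fullest had 16. Once thinned, the share was 1.96% (1.15 to 3.12) in scratch-positive and 0% in scratch-negative cells. No Tnfrsf11b UMI was found in 912 scratch-positive monocyte- and macrophage-like cells, which allows a share of up to 0.329%, nor in 1489 scratch-positive neutrophil-like cells, which allows up to 0.201%. These are limits on cells with a UMI at median depths of 19316.5 and 8632 UMIs, under the 36209 of the osteoclast-like cells, and not on cells that express the gene.

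The carriers were compared with the 803 scratch-positive osteoclast-like cells without a Tnfrsf11b UMI, as a description of 1 library. The stromal genes Col1a1 and Dcn stood at 23.9 CPM and 2.20 CPM in carriers, against 23.1 CPM and 0.892 CPM in the others. Osteoclast genes were present in both, with Ctsk at 12441 CPM in carriers and 10613 CPM in the others, Dcstamp, needed for cell fusion, at 481 CPM and 326 CPM, and Tnfrsf11a at 107 CPM and 102 CPM. Of 3 other genes, chosen after their values were seen, Cxcl2 stood at 12.0 CPM in carriers and 176 CPM in the others, Il1b at 14.8 CPM and 148 CPM, and C1qa at 0.630 CPM and 10.1 CPM. By sub-cluster, Tnfrsf11b stood at 13.7 CPM (10.9 to 16.9) in 170 Oscar-led cells, 9.82 CPM (7.44 to 12.7) in 117 cycling cells led by Hist1h1a, 6.56 CPM (5.08 to 8.35) in 262 Angpt2-led cells, 3.67 CPM (2.10 to 5.96) in 154 Qprt-led cells and 1.54 CPM (0.621 to 3.18) in 129 Dusp9-led cells. Among the sub-clusters listed here, the Oscar-led interval overlaps only that of the cycling cells. A further osteoclast-like sub-cluster of 31 scratch-positive cells, led by Akr1c18 and Cpe, is not in this list. The cycling cells were also the 1 sub-cluster with scratch-negative UMIs, 2 in 19 cells (1.97 CPM, 0.239 to 7.12).

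**Figure D4:**
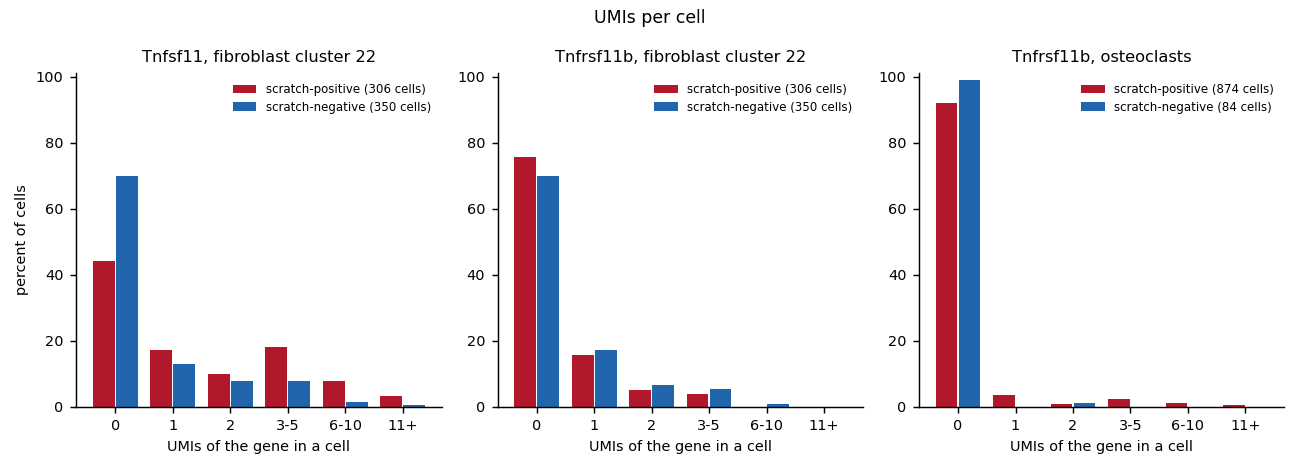
Percent of cells (y axis) by the number of UMIs of the gene in the cell (x axis, grouped), for Tnfsf11 and Tnfrsf11b in fibroblast cluster 22 and for Tnfrsf11b in osteoclast-like cells, in the scratch-positive and scratch-negative libraries; cells were not thinned. In cluster 22, 55.9% of scratch-positive and 30.3% of scratch-negative cells held Tnfsf11, while 24.5% and 30% held Tnfrsf11b.

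**Figure D5:**
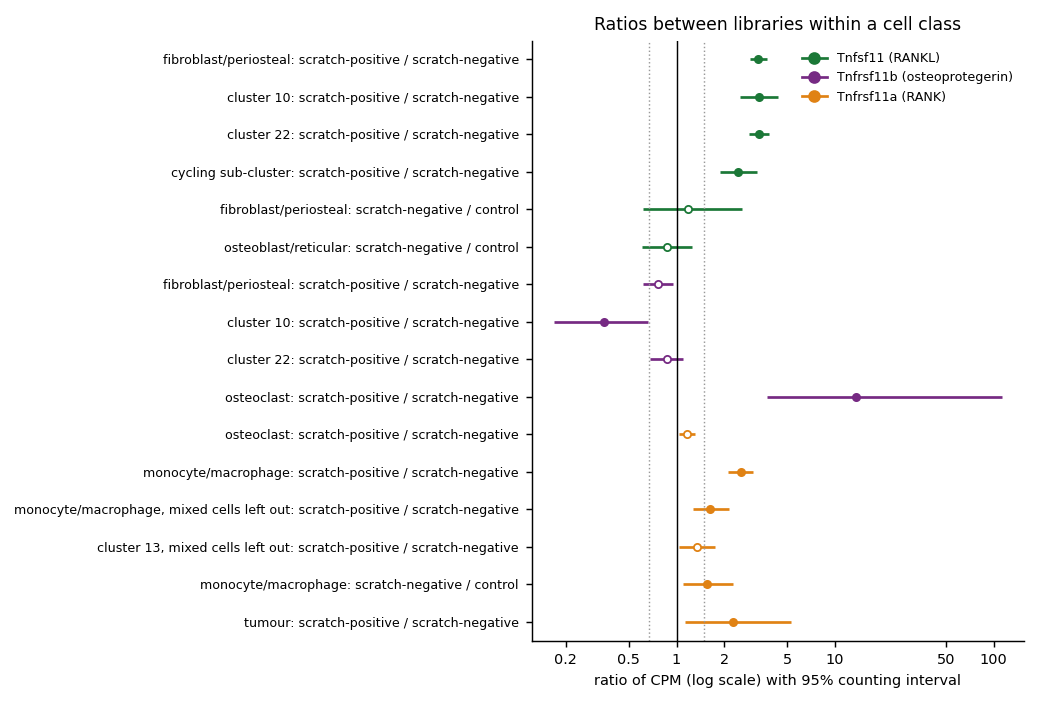
Ratio of CPM between libraries within a class (x axis, log scale) with the 95% counting interval, for Tnfsf11, Tnfrsf11b and Tnfrsf11a; filled points passed the 1.5-fold rule, open points did not, and dotted lines mark 1.5-fold in each direction. Tnfsf11 lies near 3.3 in both fibroblast-like clusters, and Tnfrsf11b lies at 0.347 in cluster 10 and at 13.6 in osteoclast-like cells.

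The genes around the axis were read from lists drawn up around its inducers, signalling parts, targets and partners, by the same rule. Of 22 measured inducers of RANKL and their receptors in fibroblast-like cells, 4 were higher and 12 lower in scratch-positive than in scratch-negative cells, beside 11.4% of all genes higher and 16.2% lower, with a median log2 ratio of -0.91 against 0.02 over all genes. Pthlh, which encodes the parathyroid hormone-related protein that acts on osteoblast-lineage cells, had the highest ratio, at 28.8 CPM in scratch-positive and 4.77 CPM in scratch-negative cells, 6.03-fold (4.73 to 7.76). Tumour-like cells had 266 CPM and 213 CPM of Pthlh, and neutrophil-like cells, which should lack it, had 5.70 CPM and 0.479 CPM, so their levels differed between the libraries too. Ptgs2, which makes prostaglandins, was at 250 CPM in scratch-positive and 775 CPM in scratch-negative cells, a ratio of 0.322 (0.310 to 0.335). Osm, a cytokine of neutrophils and macrophages, was at 4.13 CPM and 18.9 CPM, and Il17ra at 13.3 CPM and 43.6 CPM. With mixed cells left out, 5 were higher and 10 lower. The fibroblast-like cells of the scratch-positive and scratch-negative libraries lay largely in different sub-clusters, as given above. The part of this make-up in the counts and ratios was not tested.

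Among 9 partners and sheddases of the axis, 1 was higher and 2 were lower in scratch-positive than in scratch-negative fibroblast-like cells, shares near the 11.4% and 16.2% of all genes. Csf1, the growth factor that osteoclast precursors need beside RANKL, was at 34.4 CPM and 89.9 CPM, a ratio of 0.382. The part of the sub-cluster make-up in these values was not tested either.

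Against control, 9 of 22 inducers were higher and 3 lower in scratch-negative fibroblast-like cells, beside 8.09% and 16.3% of all genes. Their median log2 ratio was 0.88 against -0.13 over all genes, while Tnfsf11 itself did not pass. All 49 control cells lay in cluster 10, whereas cluster 22 held 350 of the 549 scratch-negative cells. The part of this make-up in the counts was not tested. Lif, an IL-6 family cytokine, had 744 UMIs in scratch-negative and 0 in control cells, at least 7.71-fold higher against a floor of 3 UMIs in the control cells. Il11, of the same family, had 183 and 0, at least 1.90-fold higher. Ptgs2 was at 775 CPM and 63.6 CPM, 12.2-fold (8.71 to 17.6), and Il6 at 145 CPM and 18.7 CPM, 7.75-fold (4.21 to 16.2).

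Another list took inducers of osteoprotegerin together with Wnt pathway genes and Sema3a, and not each member is an established inducer. Of its 12 genes, 5 were higher and 3 lower in scratch-positive than in scratch-negative fibroblast-like cells, beside 11.4% and 16.2% of all genes. Their median log2 ratio was 0.22 against 0.02 over all genes. Wnt4, a secreted Wnt ligand, was at 79.9 CPM and 3.20 CPM, 24.96-fold (19.02 to 33.4). Wnt5a was at 142 CPM and 50.2 CPM, 2.83-fold (2.61 to 3.07), and Sema3a, a bone-protective semaphorin, at 18.2 CPM and 7.27 CPM. Ebf2, a transcription factor of osteoblast progenitors, was at 4.29 CPM and 14.0 CPM, a ratio of 0.307 (0.224 to 0.416). In scratch-negative against control cells 0 of these 12 were higher and 7 lower, where 8.09% of genes passed upwards and 16.3% downwards, with a median log2 ratio of -0.89 against -0.13 over all genes. The lowest ratios were those of Wnt10b at 1.05 CPM and 14.97 CPM, Bmp4 at 5.01 CPM and 33.7 CPM, Lrp5 at 12.9 CPM and 50.5 CPM, and Ebf2 at 14.0 CPM and 46.8 CPM. In both comparisons the make-up of the fibroblast-like cells differed, as given above, and its part in these values was not tested.

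In macrophage-like cells, 8 of 31 RANK signalling genes were higher and 0 lower in scratch-positive than in scratch-negative cells, a share near the background of 27.3%. Their median log2 ratio was 0.02, under the 0.22 of all genes. The co-receptor Oscar was at 1.04 CPM and 0.0592 CPM and the kinase gene Src at 11.5 CPM and 1.07 CPM, with the lipid receptor gene Trem2 at 159 CPM and 45.0 CPM. Of 11 measured NFATc1 targets of the osteoclast, 5 were higher and 2 lower, the lower ones beside 10.2% of genes. With mixed cells left out, 5 RANK signalling genes were higher and 1 lower, and the count of targets was 5 higher and 2 lower. Ctsk was at 205 CPM in scratch-positive and 9.54 CPM in scratch-negative cells, 21.5-fold (18.4 to 25.3), and Dcstamp at 57.2 CPM and 5.92 CPM, 9.66-fold (7.88 to 12.0). The scratch-positive neutrophil-like cells had 43.8 CPM of Ctsk and 1.01 CPM of Dcstamp. The part of free RNA in these ratios was not tested.

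In osteoclast-like cells, 5 of 12 NFATc1 targets were higher in scratch-positive than in scratch-negative cells and 0 lower. Of all genes there, 8.67% passed upwards and 10.1% downwards. The targets had a median log2 ratio of 0.56 against 0.08 over all genes, while Tnfrsf11a did not pass. Of these targets, Acp5, Ctsk, Mmp9, Dcstamp, Ocstamp, Atp6v0d2, Itgb3 and Calcr are also on the marker list used to name the class. So are Oscar and Nfatc1 of the RANK signalling list, and these counts are not independent of the naming. Dcstamp was at 341 CPM and 121 CPM, 2.82-fold (2.57 to 3.11), the fusion gene Ocstamp at 174 CPM and 67.4 CPM, Mmp9 at 3249.8 CPM and 1422 CPM, and Ctsk at 10793 CPM and 4729 CPM, 2.28-fold (2.25 to 2.32). Of 31 RANK signalling genes, 2 were higher and 3 lower, shares near the 8.67% and 10.1% of all genes. Oscar was at 47.0 CPM and 10.6 CPM, 4.45-fold (3.25 to 6.25), and Trem2 at 135 CPM and 82.2 CPM, whereas Fos was at 269 CPM and 599.8 CPM and the adaptor gene Blnk at 20.1 CPM and 44.4 CPM. S100a8 stood at 2025 CPM in scratch-positive and 20570 CPM in scratch-negative osteoclast-like cells, so neutrophil RNA also differed between these groups. The cells came from different sub-clusters too, as given for Tnfrsf11b: 1 of 10 osteoclast markers stood out against other myeloid cells in the Dusp9-led sub-cluster, which held 129 scratch-positive and 41 scratch-negative cells, and at least 8 in the Oscar-led and Angpt2-led ones. The part of this make-up in the ratios was not tested.

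In tumour-like cells 0 of 22 RANKL inducers and receptors were higher and 11 lower in scratch-positive than in scratch-negative cells, beside 13.3% of genes. The lowest ratios were those of Il6, at 0.291 CPM and 3.41 CPM, and Osm, at 1.65 CPM and 13.04 CPM. S100a8 stood at 392 CPM in scratch-positive and 11098 CPM in scratch-negative tumour-like cells, and the part of neutrophil RNA in these counts was not tested. Pthlh did not pass, at 266 CPM and 213 CPM.

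Profiles most like those of the 3 genes were ranked by Pearson correlation of log2(CPM + 1) over 31 units of class and library, among 14604 genes. The units share libraries and depth, so the values are a description. For Tnfsf11 they were Plce1 (0.92), Arhgap32 (0.91), Car11 (0.91), Zic1 (0.91) and Cpz (0.90). For Tnfrsf11a they were Gm48065 (0.96), Cd207 (0.92), Folr2 (0.92), Slc13a3 (0.91) and Ppp1r1a (0.91), and for Tnfrsf11b Zfp469 (0.94), Slc35g2 (0.94), Lpar4 (0.94), L3hypdh (0.92) and Rpl39l (0.92). By rank correlation 1, 2 and 1 of these 5 were again among the first 5. Tnfsf11 and Tnfrsf11b had a correlation of 0.62 with each other, and Tnfrsf11a had -0.08 with Tnfsf11 and 0.14 with Tnfrsf11b.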

How the data were processed

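Single-cell RNA was measured in 1 library a group, from scratch-positive, scratch-negative and control calvaria. The authors deposited a matrix of raw UMI counts per gene and barcode for each library. The file headers name Cell Ranger 6.1.2, and the build was mm10 per the submitters' processing notes. The deposited counts came to 395654008, 167623741 and 100089008 UMIs in 9504, 8517 and 7490 barcodes for scratch-positive, scratch-negative and control. With scanpy 1.11.5, barcodes with at least 500 genes and at most 10% mitochondrial UMIs were kept. Scrublet's own calls were 601, 1 and 4 barcodes, which shows that its threshold had not worked in 2 libraries, so the highest Scrublet scores were removed at 0.8% per 1000 barcodes (723, 580 and 449 barcodes). Cells were clustered (Leiden, igraph 0.11.9, resolution 1.0, 30 components of 2000 variable genes, without the 3 genes) and named by at least 3 markers at least 1.5-fold above the other cells. Stromal and myeloid clusters were divided again into 18 and 19 sub-clusters.

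UMIs were summed per class and library as CPM, with exact Poisson, Clopper-Pearson and conditional binomial intervals (95%). Ratios needed at least 10 UMIs in both libraries together and 50 cells of the class in each (40 for fibroblast-like cells against control). The interval rule was run on simulated summed counts drawn from the Poisson model that the intervals assume. That simulation therefore does not cover the spread between cells or between animals. A count of 0 was given a floor of 3 counts. UMIs remove amplification copies, and intervals cover counting error only. Named genes were the 3 members, up to 4 called genes with the largest log2 ratio for each list and comparison described, the 5 most similar profiles (genes with at least 100 UMIs), leading genes of clusters, and markers. The members and gene lists were chosen with earlier results of these data known. Sequences were from RefSeq GRCm38.p6 and gene positions from GENCODE vM21. Alternatives were other gene, mitochondrial, doublet, resolution, scaling and thinning settings, a 2-fold rule, unnamed clusters placed in their best class, and, added after the data were seen, mixed cells left out (by 2 rules), single clusters, and barcodes shared between libraries left out.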

Additional observations from a re-analysis of the deposited data

Results flagged for a closer look

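Tnfrsf11b differed between scratch-positive and scratch-negative cells in opposite directions in osteoclast-like cells and in part of the fibroblast-like cells. The ratio was 13.6 in osteoclast-like cells, on 232 scratch-positive and 2 scratch-negative UMIs. It was 0.347 in fibroblast-like cells of cluster 10, on 12 scratch-positive and 52 scratch-negative UMIs. In the fibroblast-like class as a whole, and in its other, larger cluster, the ratio was below 1 but did not pass the 1.5-fold rule in the main setting. The sub-clusters that make up the osteoclast-like cells and both fibroblast-like clusters differed in number between the libraries. The difference between the ratios of 13.6 and 0.347 was not tested, because each group had 1 library. Only this pair of ratios was compared in this way, so it does not come from a search over genes and classes.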

How the results depend on the processing

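Of 180 alternative values of the ratios and shares, 162 kept their side of the 1.5-fold rule and their size. Of the others, 11 moved, 2 passed the rule only in the alternative and 5 no longer passed. Reversal was counted only for share differences and for ratios that passed in the main setting, and 0 of these reversed. Tnfsf11 ratios of scratch-negative to control fell on both sides of 1 in 2 classes where they did not pass. They ran between 0.940 and 1.34 in fibroblast-like cells and between 0.853 and 1.14 in the osteoblast-like and reticular-like cluster. For Tnfsf11 in fibroblast-like cells, scratch-positive over scratch-negative ranged between 2.80 (no doublets removed) and 4.07 (a wider rule for mixed cells, which also leaves out the 3 keratin- or neutrophil-bearing sub-clusters). The difference in its thinned share was 14.95 percentage points at 5000 UMIs and 8.17 at 2000 UMIs. For Tnfrsf11b in fibroblast-like cells the ratio of scratch-positive to scratch-negative was 0.347 in cluster 10 alone, where the ligand-to-decoy ratio was 9.52, and 0.413 under the wider rule, with a ligand-to-decoy ratio of 9.87. Its ratio of scratch-negative to control was 3.35 without mixed cells and 3.26 under the wider rule. For Tnfrsf11a in monocyte- and macrophage-like cells, scratch-positive over scratch-negative was 2.02 at up to 20% mitochondrial UMIs, 1.64 without mixed cells, 1.72 under the wider rule and 2.07 as a mean of cell CPM. Scratch-negative over control was 1.37 at resolution 2.0, 1.43 in cluster 13 alone and 1.15 as a mean of cell CPM, which do not pass, and reached at most 2.19, and scratch-positive over control was 2.37 as a mean of cell CPM. Its thinned share difference was 6.12 percentage points at 5000 UMIs and 2.60 at 2000 UMIs. Apart from the single clusters, the mixed cells and the thinning, the cause was not tested. With a 2-fold rule, 25 of 48 list counts stayed within 1.5 times. The control values rest on 9 Tnfsf11 and 2 Tnfrsf11b UMIs in 49 fibroblast-like cells. No paired analysis was possible because each group had 1 library.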
